A study of Mus musculus with 2 samples.

Results

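The cells described here are a small group of CD4 T cells that carry transcripts of *Myl1*, *Kcnh5* and *Dpp10*, genes known from muscle and nerve rather than from lymphocytes. They were chosen by rule on raw UMI counts (unique molecular identifiers, each standing for 1 captured transcript). A cell was taken if it had 500 or more genes and at most 10% mitochondrial UMIs, at least 1 UMI of *Cd3d*, *Cd3e* or *Cd3g*, at least 1 UMI of *Cd4*, none of *Cd8a*, *Cd8b1*, *Foxp3* or *Il21*, at most 2 UMIs of *Cntn5*, at most 2 of *Dscam*, *Penk* and *Hapln1* together, and 3 or more of *Myl1*, *Kcnh5* and *Dpp10* together. The rule found 52 of the 13772 cells that passed the cell filter, 50 from the DKO-severe mouse and 2 from the WT mouse. The values of these 3 genes chose the cells, so their levels are given below as a description.

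TCRβ+ T cells of 2 mice aged 14 weeks were profiled by single-cell RNA sequencing, with spleen and peripheral lymph nodes (inguinal and cervical) pooled. The control was a *Foxp3Cre* WT animal, and the other a DKO-severe animal of genotype *Foxp3-Cre Tet2/3fl/fl*. Both animals carry Cre at the *Foxp3* locus, where an inserted *YFP-iCre* is active in regulatory T (Treg) cells, and in the DKO-severe animal Cre deletes floxed *Tet2* and *Tet3*. The study calls a mouse DKO-severe when its spleen and lymph nodes hold very many leukocytes. A cell without *Foxp3* transcript in this mouse may never have expressed Cre or may have lost *Foxp3* after it did, and these counts do not separate the possibilities. With 1 mouse per genotype, a difference between genotypes and a difference between these animals cannot be told apart, cells are not replicates, and no test of the condition was possible. Intervals are therefore 95% counting intervals and cover counting error only.

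The WT matrix held 45294779 UMIs in 7189 barcodes and the DKO-severe matrix 69692053 UMIs in 7161 barcodes. Inside the DKO-severe mouse, cells grouped by the sum of the 3 genes came from the same gate. This gate is the rule without its line on *Myl1*, *Kcnh5* and *Dpp10*. The comparison with *Cntn5*-high cells (3 or more *Cntn5* UMIs) and the search for nearest neighbours, both given below, used cells outside this gate too. The gate held 1066 DKO-severe cells. Of these, 936 had a sum of 0 UMIs of the 3 genes (sum-0 cells), 80 had a sum of 1 or 2, and 50 were *Myl1*/*Kcnh5*/*Dpp10* cells. The 50 cells held 421826 UMIs with a lowest, median and highest of 2664, 8359.5 and 17136 per cell, against a median of 6828 in sum-0 cells, 8008 in cells with a sum of 1 or 2 and 5262 in the 1661 WT cells of the gate with a sum of 0. Mitochondrial UMIs had a median of 3.43% in the 50 cells and 2.99% in sum-0 cells. None of the 50 cells was among the highest 6% of doublet scores of the DKO-severe matrix, against 37 sum-0 cells (3.95%). The 2 matrices shared 0 barcodes, and 0 of the 52 cells had more of the other animal's hashtag.

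TET2 and TET3 are dioxygenases that oxidise 5-methylcytosine, most of which lies in CpG dinucleotides, and so take part in DNA demethylation. *Mal* encodes a small membrane proteolipid of lipid rafts that is found in myelin and in T cells, where it takes part in the transport of LCK to the plasma membrane. *Myl1* encodes the essential light chain of fast skeletal muscle myosin. *Kcnh5* encodes a voltage-gated potassium channel of the ether-à-go-go family. *Dpp10* encodes a relative of dipeptidyl peptidases that lacks peptidase activity and serves as an accessory subunit of Kv4 potassium channels in neurons. *Ctnnd2* encodes δ-catenin, a neuronal adherens junction protein. A T cell also carries a rearranged T cell receptor β chain whose variable part comes from 1 of many *Trbv* segments, so cells that descend from a common precursor share a segment.

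The germline 3′ ends of the *Trbv* segments that led in the 50 cells are shown because the share of these segments is compared between groups at the end. They are on chromosome 6 (GRCm38), all on the + strand except *Trbv31*, which is on the - strand. Lower case gives the last 21 bases of the annotated V exon, and capitals mark the 7 bases after it, where the heptamer of the recombination signal lies.
Trbv19, chr6:41179028-41179055: ttctctgtgccagcagtatagCACAGTG
Trbv12-2, chr6:41119344-41119371: tacttctgtgccagctctctcCACAGCC
Trbv15, chr6:41141638-41141665: tctgtgtgccagcagtttagcCACAGAG
Trbv13-2, chr6:41121812-41121839: acttctgtgccagcggtgatgCACAGTG
Trbv31, chr6:41557684-41557711: acctctgtgcctggagtctcaCACTGAG

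The 5 marker genes lie on 4 chromosomes, so their transcripts do not come from a single locus. In GRCm38, *Myl1* (ENSMUSG00000061816) spans chr1:66924295-66945404 and *Dpp10* (ENSMUSG00000036815) spans chr1:123321471-124045559. *Mal* (ENSMUSG00000027375) spans chr2:127633226-127656695, *Kcnh5* (ENSMUSG00000034402) spans chr12:74897220-75177332 and *Ctnnd2* (ENSMUSG00000022240) spans chr15:30172593-31029341. All are annotated as protein coding, and all but *Ctnnd2* lie on the - strand. *Dpp10*, *Ctnnd2* and *Kcnh5* are among the longest genes measured. Their spans are 724, 857 and 280.1 kb, longer than 99.7%, 99.8% and 97.2% of the genes tested against sum-0 cells, whereas *Mal* (23.5 kb) and *Myl1* (21.1 kb) are shorter than the median of 29.3 kb. Whether intronic reads were counted is not given in the sources used here.

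The 100 bases before the RefSeq transcription start are shown for 4 of the 5 genes because methylated CpG is the substrate of the TET enzymes. Capitals mark CG. The sequences are from RefSeq (GRCm38.p6), 5′ to 3′ on the gene's own strand. The same stretch of *Myl1* overlaps an untranslated exon of another transcript and is not shown. Which start these cells used is not known from 3′ counts.
Mal, chr2:127656696-127656795: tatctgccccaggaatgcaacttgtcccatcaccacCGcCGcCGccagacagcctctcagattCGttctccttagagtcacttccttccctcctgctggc
Kcnh5, chr12:75177333-75177432: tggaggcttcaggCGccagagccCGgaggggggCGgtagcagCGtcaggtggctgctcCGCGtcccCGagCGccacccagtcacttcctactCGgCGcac
Dpp10, chr1:124045560-124045659: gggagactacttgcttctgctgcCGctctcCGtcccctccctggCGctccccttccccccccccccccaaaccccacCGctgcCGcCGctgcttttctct
Ctnnd2, chr15:30172434-30172533: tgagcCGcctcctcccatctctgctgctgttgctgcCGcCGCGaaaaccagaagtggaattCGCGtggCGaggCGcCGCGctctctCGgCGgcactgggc

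Counted over 250 bases before the start, *Ctnnd2* had 21 CG, *Kcnh5* 16, *Dpp10* 14, *Mal* 7 and *Myl1* 6. The median over all 32851 promoters of the table was 6, and the shares of promoters with as many CG or more were 16.3%, 25.4%, 29.4%, 46.3% and 50.4% in the same order. The 5 starts thus did not share a high or a low CG count. No methylation was measured here.

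The *Myl1*/*Kcnh5*/*Dpp10* cells made up 4.69% of the gated DKO-severe cells (50 of 1066, exact binomial 95% interval 3.50% to 6.14%). In the WT mouse the same rule took 2 of 1677 gated cells (0.119%, 0.0144% to 0.430%). The WT cells each had 3 *Kcnh5* UMIs and 0 UMIs of *Myl1*, *Dpp10*, *Mal* and *Ctnnd2*, so only 1 of the 5 genes was seen in them. When every cell was thinned to 4000 UMIs, which left out 929 WT and 577 DKO-severe cells that were shallower, the share was 1.89% in the DKO-severe mouse (18 of 953, 1.12% to 2.97%) and 0 of 1200 cells in the WT mouse, which allows a share of up to 0.25%.

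Cells with a sum of 3 or more were rare outside this gate. Across all T cells of the DKO-severe mouse 81 had such a sum, and 50 of these were the cells described. Checked in turn, 9 of the others had neither *Cd4* nor *Cd8* UMIs, 5 had both, 2 had *Cd8* without *Cd4*, 6 had 3 or more *Cntn5* UMIs, 5 had *Il21*, 2 had *Foxp3* and 2 had 3 or more UMIs of *Dscam*, *Penk* and *Hapln1*. Among CD8 cells, 2 of 1804 in the DKO-severe mouse (0.111%) and 1 of 3260 in the WT mouse (0.0307%) reached the sum.

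Inside the group, the 3 genes of the rule were mostly seen apart from each other. *Kcnh5* had a UMI in 29 of the 50 cells (105 UMIs in all, up to 9 in a cell), *Myl1* in 27 (110 UMIs, up to 12) and *Dpp10* in 12 (84 UMIs, up to 22). A single cell held 26.2% of all *Dpp10* UMIs, whereas the highest cell held 8.57% of the *Kcnh5* UMIs and 10.9% of the *Myl1* UMIs. In 33 cells only 1 of the 3 genes was seen, namely *Kcnh5* in 15, *Myl1* in 12 and *Dpp10* in 6. *Myl1* and *Kcnh5* were seen together in 12 cells, *Myl1* and *Dpp10* in 4, *Kcnh5* and *Dpp10* in 3, and all 3 in 1 cell. The summed UMIs of the 3 genes had a lowest, median and highest of 3, 4.5 and 34. Just inside the threshold were 11 cells with a sum of 3 and just outside it 27 cells with a sum of 2.

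**Figure D1:**
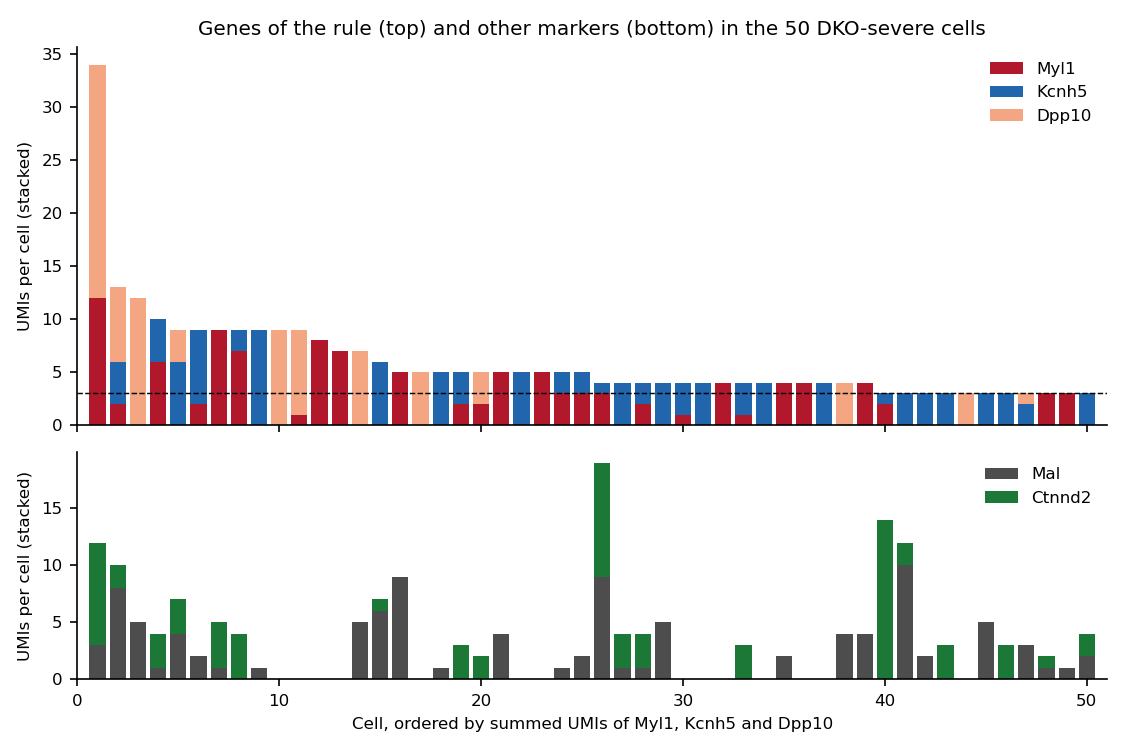
UMIs in each of the 50 DKO-severe *Myl1*/*Kcnh5*/*Dpp10* cells (x axis, ordered by the summed UMIs of the 3 genes). The upper panel stacks *Myl1*, *Kcnh5* and *Dpp10* UMIs with a dashed line at the threshold of 3, and the lower panel stacks *Mal* and *Ctnnd2* UMIs. Most bars of the upper panel have 1 colour, the highest reaches 34 UMIs, and *Mal* or *Ctnnd2* appear in 36 of the 50 cells.

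*Mal* and *Ctnnd2*, which the rule did not use, were seen in the same cells. They were named as markers of these cells with earlier results of these data known, so their levels are a description too. *Mal* had a UMI in 29 of the 50 cells (58%, interval 43.2% to 71.8%) and *Ctnnd2* in 19 (38%, 24.7% to 52.8%). In sum-0 cells *Mal* was seen in 35 of 936 (3.74%) and *Ctnnd2* in 27 (2.88%). *Mal* had 103 UMIs over the 50 cells, from 0 to 10 per cell with a median of 1, and *Ctnnd2* had 75, from 0 to 14 with a median of 0. As CPM, a gene's summed UMIs scaled to a total of 1000000 in the group, *Mal* was at 244 CPM in the 50 cells, 80.2 in cells with a sum of 1 or 2, 9.77 in sum-0 cells, 1.48 in *Cntn5*-high cells and 0.207 in WT cells. *Ctnnd2* was at 178, 55.4, 11.4, 4.43 and 0.516 CPM in the same groups. Both genes were thus close to 0 in the WT cells of the gate with a sum of 0. At 4000 UMIs per cell, *Mal* was seen in 38.8% of the 50 cells and 2.76% of sum-0 cells, and *Ctnnd2* in 26.5% and 1.95%.

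The share of cells with *Mal* was higher at each step of the summed UMIs up to the threshold. It was 3.74% at a sum of 0, 17.0% at 1, 37.0% at 2 and 63.6% at 3. At a sum of 4 it was 50%, and at 5 or more 60.0%, so no further step was seen above the threshold. *Ctnnd2* was seen in 2.88%, 13.2%, 22.2%, 54.5%, 28.6% and 36.0% of cells in the same order. Median depth was 6828, 7983, 9202 and 7766 UMIs at sums of 0, 1, 2 and 3, so it was higher at each of the first steps and lower at a sum of 3, and its part in the shares was not tested in these groups. *Mal* was found whichever gene of the rule had been seen, in 9 of the 15 cells with *Kcnh5* alone, 7 of the 12 with *Myl1* alone and 3 of the 6 with *Dpp10* alone. *Ctnnd2* was found in 6, 2 and 0 of these cells.

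**Figure D2:**
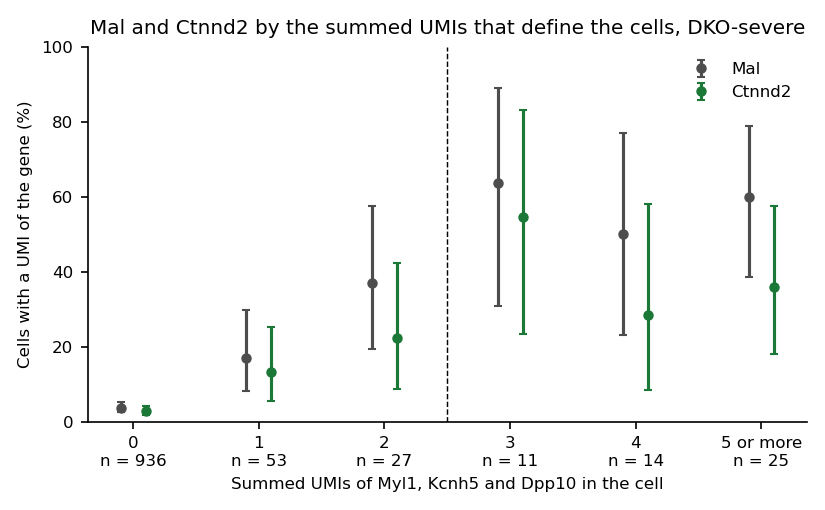
Percentage of gated DKO-severe cells with a UMI of *Mal* or *Ctnnd2* (y axis) by the summed UMIs of *Myl1*, *Kcnh5* and *Dpp10* in the cell (x axis, n is the number of cells). Points are shares, bars are exact binomial 95% intervals and the dashed line is the threshold of the rule. *Mal* goes from 3.74% of cells at a sum of 0 to 63.6% at a sum of 3 and stays between 50% and 60.0% above it.

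On the lists of striated muscle, *Kcnh* and Kv4 channel genes, those other than *Myl1* and *Kcnh5* were close to 0 in the 50 cells. *Nebl*, which is known from heart muscle but not on the list, was at 455 CPM against 153 in sum-0 cells. Of 12 other striated muscle genes, 10 had 0 UMIs and *Myl4* and *Actc1* had 1 each, the myosin heavy chains *Myh3* and *Myh8* and the troponins *Tnnt1*, *Tnnt3*, *Tnni2* and *Tnnc2* being at 0. Of the other 7 *Kcnh* channel genes, 6 had 0 UMIs and *Kcnh4* had 1. The Kv4 channels *Kcnd1*, *Kcnd2* and *Kcnd3*, which DPP10 binds in neurons, and its closest relative *Dpp6* all had 0 UMIs. *Dpp4*, a surface peptidase of T cells that belongs to the same family, was at 192 CPM in the 50 cells and 114 in sum-0 cells (log2 ratio 0.76, interval 0.41 to 1.09). *Dpp8*, a cytosolic peptidase of the family, was at 83.0 against 60.0 CPM (0.47, -0.07 to 0.97), and the Kv4-interacting gene *Kcnip1* had 7 UMIs. *Mal2*, *Mall* and *Pllp* of the *Mal* family had 0 UMIs. *Pkp4*, a relative of δ-catenin found at cell junctions, was at 121 CPM against 29.6 in sum-0 cells, while *Ctnnd1* had 0 UMIs and *Arvcf* 1.

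The genes next to the markers on the chromosome were looked at in the same cells. Of the 20 genes that lie nearest, 2 on each side of each marker, 8 had a UMI in the 50 cells and 7 passed the expression floor described below. Of these 7, 1 was 2-fold or more higher, against 2.33% of all genes tested, and 0 were lower. *Mrps5*, a mitochondrial ribosomal protein gene 26.4 kb from *Mal*, was at 99.6 CPM in the 50 cells and 46.8 in sum-0 cells (log2 ratio 1.09, interval 0.59 to 1.55). *Acadl*, 61.0 kb from *Myl1*, had a log2 ratio of 0.76 (0.32 to 1.17), *Kansl1l*, 107 kb from *Myl1*, of 0.68 (0.26 to 1.08) and *Actr3*, the second gene above *Dpp10*, of 0.10. *Mall*, the second gene above *Mal*, and *Rhoj*, the nearest gene above *Kcnh5*, had 0 UMIs in both groups. Of genes that overlap a marker, only antisense genes within *Ctnnd2* were in the files, and they had 0 UMIs in the 50 cells.

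The T cell genes that the rule did not require were present too. The rule asked for any *Cd3* transcript, and *Cd3e* and *Cd3g* had UMIs in all 50, *Cd3d* in 48 and the T cell receptor constant gene *Trbc2* in all 50. The signalling kinase gene *Lck* was at 275 CPM against 341 in sum-0 cells (log2 ratio -0.31, interval -0.59 to -0.04). *Trac*, the α chain constant gene, was at 337 CPM against 663 (log2 ratio -0.98, -1.23 to -0.74) and *Cd5* at 78.2 against 155 (-0.99, -1.53 to -0.49). The targeted genes *Tet2* and *Tet3* were at 54.5 and 107 CPM in the 50 cells, 58.1 and 99.3 in sum-0 cells and 51.3 and 117 in WT cells. Counts over a whole gene do not check a deletion of some exons, so these values say nothing of whether the alleles were deleted.

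Summed levels of other cell types' transcripts were lower in these cells than in sum-0 cells, where few cells held most of them. Granulocyte genes summed to 80.6 CPM in the 50 cells, 3498 in sum-0 cells, 81.6 in cells with a sum of 1 or 2 and 85.8 in WT cells, and *Camp*, *Ltf* and *Retnlg* were at 0 in the 50 cells. Of the B cell genes, *Ms4a1* was at 0, *Cd79a* and *Cd79b* had 1 UMI each, and *Ighm* was at 270 CPM against 240. All 5 dendritic cell genes and both platelet genes were at 0. *Trdc*, the δ chain constant gene, and *Zbtb16*, the factor of innate-like T cells, were at 0 too. Summed levels of the monocyte list (26.1 against 245 CPM, 4 of 6 genes at 0), the B cell list (365 against 908 CPM, 2 of 6 at 0), the plasma cell list (52.2 against 119 CPM), the natural killer cell list (14.2 against 113 CPM) and the haemoglobin list (16.6 against 335 CPM) were also lower in the 50 cells than in sum-0 cells. Of 936 sum-0 cells, 103 had 10 or more UMIs of granulocyte, monocyte, B cell and dendritic cell genes, with up to 7551 in a cell, against 2 of the 50 cells, both with 10. At a lower limit the order was the opposite, with 3 or more such UMIs in 34 of the 50 cells (68%) and in 46.8% of sum-0 cells, and a median of 4 against 2 UMIs per cell. The part of these transcripts in the lower levels given below was measured by leaving such cells out.

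Against sum-0 cells, 6137 genes passed an expression floor of 100 or more UMIs in both groups together and a mean of 20 or more CPM, with the genes of the rule left out. Of these, 143 (2.33%) were 2-fold or more higher in the 50 cells and 373 (6.08%) were 2-fold or more lower, and the median log2 ratio of all tested genes was -0.07. The interval left out 0 for 143 of the higher and 354 of the lower genes (5.77% of those tested). Ratios count fewer than 3 UMIs as 3, so a gene with 0 UMIs in the 50 cells is at least as far below as its ratio says.

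The 12 genes with the highest ratios were led by *Mal* and *Ctnnd2*, the 2 markers outside the rule. Both had been chosen as markers with earlier results of these data known. *Mal* had a log2 ratio of 4.64 (interval 4.20 to 5.10) and *Ctnnd2* of 3.97 (3.50 to 4.43). *App*, the amyloid precursor protein, was at 218 CPM against 28.1, a log2 ratio of 2.96 (2.59 to 3.32), and had a UMI in 36 of the 50 cells (72.0%) against 11.5% of sum-0 cells. *Atp6v0d2*, a subunit of the vacuolar proton pump best known from osteoclasts and macrophages, was at 90.1 CPM against 11.9 (2.92, 2.33 to 3.48). *Epb41l5*, a FERM domain protein of the band 4.1 family, was at 133 CPM against 19.4 (2.77). *Prss12*, the serine protease neurotrypsin, was at 68.8 CPM against 13.4 (2.36). *Epha3*, an ephrin receptor tyrosine kinase, was at 216 CPM against 49.1 (2.13). These genes were spread over many cells, since the highest cell held between 7.61% (*App*) and 21.1% (*Atp6v0d2*) of their UMIs.

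The remaining genes of the 12 were *Socs2*, *Pkp4*, *Ust*, *Gzmc* and *Ms4a4c*. *Socs2*, a feedback inhibitor of cytokine receptors, was at 83.0 CPM against 19.8 (log2 ratio 2.07, interval 1.49 to 2.61), and 28.6% of its UMIs came from a single cell. *Ust*, a sulfotransferase that modifies glycosaminoglycans, was at 270 CPM against 69.2 (1.97, 1.66 to 2.26). *Gzmc*, granzyme C, was at 42.7 CPM against 11.8 (1.86, 1.04 to 2.60) on 18 UMIs. *Ms4a4c*, a membrane protein of the MS4A family, was at 202 CPM against 56.2 (1.84). *Pkp4* had a log2 ratio of 2.03 (1.56 to 2.48). When each cell was thinned to 4000 UMIs before summing, *Pkp4* (0.87) and *Gzmc* (0.69) were less than 2-fold higher, and the other 10 stayed 2-fold or more higher.

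Cells with a sum of 1 or 2, which the rule had not taken, had levels between the groups for 11 of these 12 genes. *App* was at 115 CPM in them, *Atp6v0d2* at 52.5, *Epb41l5* at 80.2, *Prss12* at 42.3 and *Ust* at 171. *Epha3*, the exception, was at 217 CPM and so as high as in the 50 cells. In WT cells *Epha3* was at 0.516 CPM, *Atp6v0d2* at 0.723, *Gzmc* at 0.826 and *Epb41l5* at 1.65, while *App* (27.8 CPM), *Pkp4* (23.4) and *Ust* (71.5) were at about the level of DKO-severe sum-0 cells. Some of these genes were therefore close to 0 in the WT mouse and others were not.

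**Figure D3:**
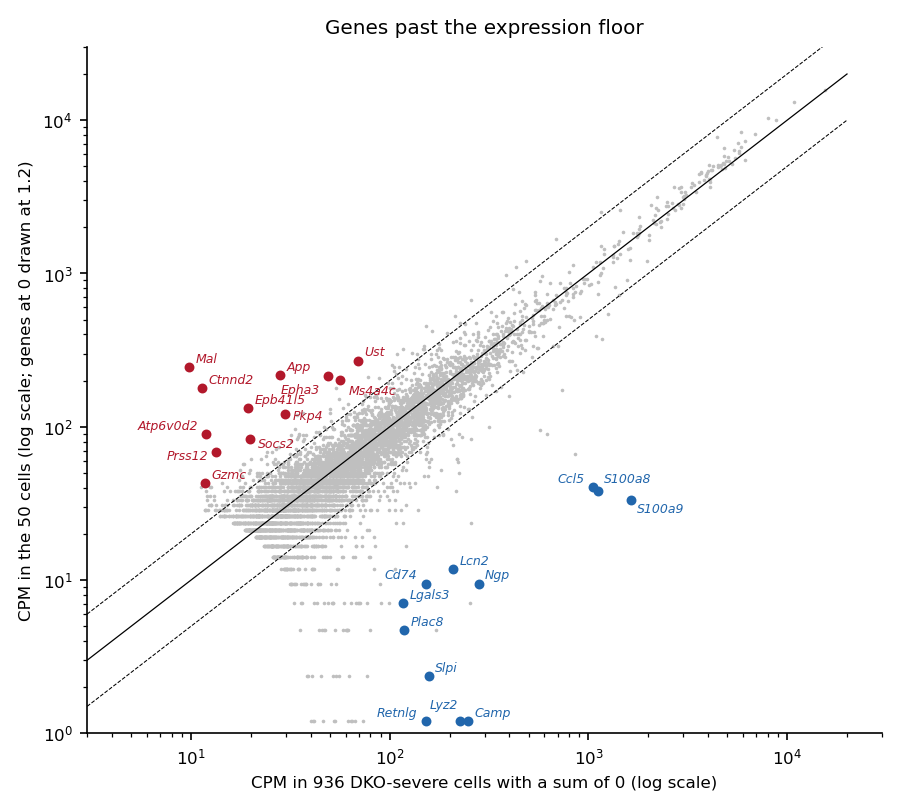
CPM of 6137 genes in the 50 *Myl1*/*Kcnh5*/*Dpp10* cells (y axis) against 936 DKO-severe sum-0 cells (x axis), both on log scales. Each grey point is a gene, red points are the 12 highest and blue points the 12 lowest ratios, the solid line marks equal levels, the dashed lines 2-fold, and genes with 0 UMIs in the 50 cells are drawn at 1.2 CPM. *Mal* lies farthest above the line at 244 against 9.77 CPM and the granulocyte genes *S100a9* and *S100a8* lie far below it.

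The 12 genes with the lowest ratios were mostly genes of granulocytes and other myeloid cells. *S100a9* was at 33.2 CPM in the 50 cells and 1639 in sum-0 cells (log2 ratio -5.63, interval -6.50 to -4.88), *S100a8* at 37.9 against 1115 (-4.88), and *Camp*, *Lyz2* and *Retnlg* had 0 UMIs in the 50 cells. *Ngp*, *Lcn2* and *Slpi* belonged to the same kind. The share of cells with a UMI differed far less, 18.0% against 23.5% for *S100a9* and 26.0% against 18.3% for *S100a8*, so the level in sum-0 cells came from few cells. Cells with 10 or more UMIs of granulocyte, monocyte, B cell and dendritic cell genes were then left out. The log2 ratio was then 0.07 for *S100a9* and 0.66 for *S100a8*. Both genes count towards this limit, so their level in sum-0 cells was bound to fall without those cells. *Ccl5*, a chemokine of effector and memory T cells, was at 40.3 CPM against 1055 (-4.71) with all cells and had a ratio of -4.96 without them. *Lgals3*, a galectin of activated cells, was at 7.11 CPM against 117 on 3 UMIs (-4.04, -6.32 to -2.49) and had a ratio of -3.09 without them. *Plac8* (2 UMIs, -4.06, -7.69 to -2.79) and *Cd74*, the invariant chain of MHC class II (-3.997), had ratios of -2.14 and -1.41 without them.

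The lists of T cell state genes were compared with the same cells, against a background of 2.33% higher and 6.08% lower. All 10 genes of the naive state list were tested, with a median log2 ratio of 0.25, 1 gene 2-fold higher and 1 lower. *Il7r*, the interleukin-7 receptor that keeps resting T cells alive, was the higher one. It was at 1211 CPM in the 50 cells and 483 in sum-0 cells (log2 ratio 1.33, interval 1.19 to 1.46) and had a UMI in 47 of the 50 cells (94.0%) against 65.2% of sum-0 cells. *Satb1*, a chromatin organiser, was at 562 CPM against 372 (0.59, 0.40 to 0.79) and *Ccr7* at 102 against 71.9 (0.50, 0.02 to 0.95). *Lef1* was at 268 CPM against 399 (-0.58, -0.86 to -0.31), and *Tcf7* (0.15, -0.09 to 0.38) had an interval across 0. The genes of the list therefore went both ways. The median was 0.02 when cells with 10 or more UMIs of the other cell types were left out. With a limit of 3 or more, which removed 34 of the 50 cells, it was -0.62. The median ends of the genes' intervals were then -1.50 and 0.21.

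For the T follicular helper (Tfh) list, 7 genes were tested with *Il21* left out, 3 were 2-fold lower and 0 were 2-fold higher, with a median of -0.80. *Pdcd1*, which encodes PD-1, had 3 UMIs in the 50 cells, 7.11 CPM against 67.3 (log2 ratio -3.24, interval -5.53 to -1.69). The transcription factors *Tox2* (14.2 against 78.3 CPM, -2.46) and *Batf* (40.3 against 97.2 CPM, -1.27) were the others. *Maf* (-0.76), *Icos* (-0.63) and *Nfkb1* (-0.80) were lower by less than 2-fold. *Bcl6*, the factor that directs Tfh differentiation, was at 104 CPM against 68.1 (0.61, 0.14 to 1.06). *Cxcr5*, the follicle homing receptor, had 2 UMIs and did not pass the floor. *Tox*, at 391 against 1095 CPM (-1.48, -1.72 to -1.26), and *Slamf6*, at 564 against 322 CPM (0.81, 0.61 to 1.00), stood on the further list of Tfh genes, of which 7 were tested and 2 were 2-fold lower.

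For the Treg list, 7 genes were tested with *Foxp3* left out, 4 were 2-fold lower and 0 higher, with a median of -1.83. *Ikzf2*, which encodes Helios, was at 94.8 CPM against 568 (log2 ratio -2.58, interval -3.07 to -2.13) and had a UMI in 28.0% of the 50 cells against 47.4% of sum-0 cells. *Il2ra*, the high-affinity interleukin-2 receptor chain, was at 9.48 CPM against 50.6 (-2.42) on 4 UMIs. *Ctla4* and *Tnfrsf4* were both at 61.6 CPM, against 219 each, with a ratio of -1.83. *Tnfrsf18*, which encodes GITR (0.11), *Nrp1* (-0.04) and *Capg* (0.15) had intervals across 0. Of 5 inhibitory receptor genes tested, 3 were 2-fold lower and 0 higher. *Lag3* had 0 UMIs in the 50 cells and 73.0 CPM in sum-0 cells, a log2 ratio of -3.36 with 0 counted as 3 UMIs.

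For the memory list, 12 genes were tested, 4 were 2-fold lower and 0 higher, with a median of -0.27. *S100a4* was at 173 CPM against 736 (log2 ratio -2.09, interval -2.44 to -1.76), and 52.1% of its UMIs in the 50 cells came from a single cell. *S100a6* was at 372 CPM against 1175 (-1.66), *Lgals1* at 334 against 703 (-1.07) and *Ccr2*, a chemokine receptor, at 4.74 against 61.8 on 2 UMIs (-3.12, -6.76 to -1.84). *Itgb1*, the β1 integrin, was at 550 CPM against 423 (0.38, 0.18 to 0.57), and *Cd44* (-0.01, -0.45 to 0.41) had an interval across 0. Of the Th1 list, 3 of 7 genes passed the floor, *Ccl5* and *Hopx* (7.11 against 51.7 CPM on 3 UMIs, -2.86, -5.14 to -1.30) were 2-fold lower, *Stat4* was at 306 against 224 CPM (0.45, 0.18 to 0.71), and *Cxcr3*, *Tbx21* and *Ifng* had 0 UMIs. Of the cytotoxic list, 2 of 8 passed it and were 2-fold lower, *Ccl5* and *Nkg7* (23.7 against 258 CPM, -3.44), and *Gzma*, *Gzmk*, *Gzmm* and *Prf1* had 0 UMIs, whereas *Gzmc*, which is not on that list, was higher as given above. Of 9 genes tested that follow antigen receptor signals, 3 were 2-fold lower and 0 higher, among them *Tnfrsf9* (1 UMI, -2.91, -9.80 to -2.01) and *Irf4* (-1.75), while *Junb* was at 510 CPM against 395 (0.37, 0.16 to 0.57) and *Cd69* had a ratio of 0.26 with an interval across 0. Of 4 anergy genes tested, 1 was 2-fold lower, *Izumo1r*, which encodes folate receptor 4 (99.6 against 315 CPM, -1.66). Cells with a sum of 1 or 2 lay between the groups in summed CPM of several lists. In the 50 cells, these cells and sum-0 cells, the naive list was at 3651, 3446 and 2716. The Tfh list was at 718, 894 and 1281, and the Treg list at 635, 948 and 1472. The memory list was at 3625, 4362 and 6219, and the inhibitory receptor list at 270, 350 and 628. The differences were thus shared in part by cells that the rule had not taken.

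**Figure D4:**
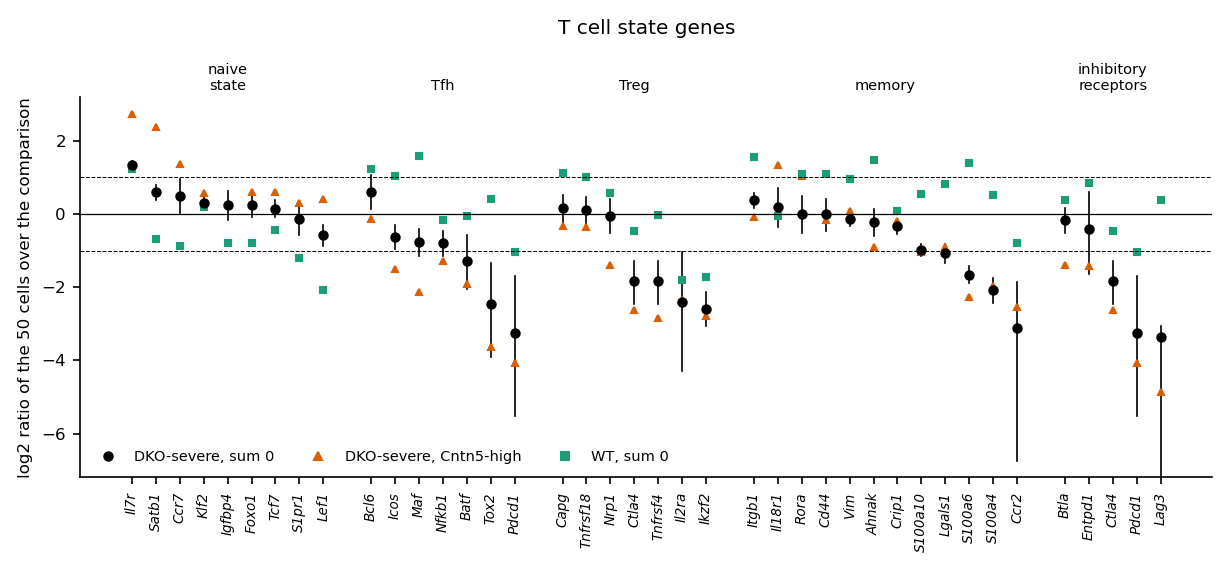
Log2 ratio of the 50 *Myl1*/*Kcnh5*/*Dpp10* cells (y axis) over DKO-severe sum-0 cells (black circles, vertical lines are 95% counting intervals), DKO-severe *Cntn5*-high cells (orange triangles) and WT sum-0 cells (green squares) for genes of 5 lists that were tested against sum-0 cells and are reported here (x axis). Dashed lines mark 2-fold, and the interval of *Lag3* has no lower end. *Il7r* lies above 0 in all 3 comparisons, *Ikzf2* below 0 in all 3, and *Maf* and *Icos* lie below 0 against the DKO-severe cells and above 0 against WT cells.

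The 50 cells were then set beside the 688 *Cntn5*-high CD4 cells of the same mouse (3 or more *Cntn5* UMIs, no *Foxp3*). Of 6232 genes tested, 270 (4.33%) were 2-fold or more higher in the 50 cells and 747 (12%) lower, with a median of -0.14 over all tested genes. *Mal* (log2 ratio 7.37), *Ctnnd2* (5.33), *4933406I18Rik* (4.16), *App* (3.94), *Pde3b*, a phosphodiesterase (3.85), and *Igfbp4*, a growth factor binding protein on the naive list (3.50), had the highest ratios. *Pde3b* was at 469 CPM in the 50 cells, 239 in sum-0 cells and 32.5 in *Cntn5*-high cells, so here the *Cntn5*-high cells stood lowest. The lowest ratios were those of *Ralyl*, an RNA-binding protein gene (-6.28), *Lyz2* (-6.05), *Camp* (-5.97), *Ntng1*, netrin G1 (-5.77), *Cacna1d*, a calcium channel (-5.74), and *Slc24a3*, a sodium, potassium and calcium exchanger (3 UMIs, -5.66, -7.94 to -4.11). *Ralyl* was at 66.4 CPM in the 50 cells, 851 in sum-0 cells and 5169 in *Cntn5*-high cells. *Epha3* was at 216 CPM in the 50 cells and 140 in *Cntn5*-high cells, and so was high in both. *Epb41l5* was at 133 CPM in the 50 cells, 65.3 in *Cntn5*-high cells (log2 ratio 1.02, interval 0.60 to 1.42) and 19.4 in sum-0 cells. It was thus above the sum-0 level in *Cntn5*-high cells too, whereas *App* was below it there (14.2 against 28.1 CPM).

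The rule removed cells with *Il21* from the 50 cells, whereas 432 of the 688 *Cntn5*-high cells (62.8%) had it, so the gate itself sets the groups apart in a Tfh gene and its part in the Tfh values was not tested. Of 9 Tfh genes tested, 8 were 2-fold lower in the 50 cells and 0 higher, with a median of -2.14. *Pdcd1* (-4.07), *Tox2* (-3.64) and *Maf* (-2.14) were among them, and *Bcl6* (-0.13) was the gene that was not. Of 10 naive genes, 4 were 2-fold higher and 0 lower, with *Il7r* at 2.75, *Satb1* at 2.39 and *Ccr7* at 1.36. Of 7 Treg genes, 5 were 2-fold lower, and all 5 inhibitory receptor genes tested were. *Il21* was not counted.

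Against the 1661 WT cells of the gate, 5982 genes were tested, 291 (4.86%) were 2-fold or more higher and 309 (5.17%) lower. The Tfh list did not stand lower in this comparison. Of 5 genes tested 3 were 2-fold higher, *Maf* (1.60), *Bcl6* (1.24) and *Icos* (1.04), and 0 lower. Of 11 memory genes 5 were 2-fold higher and 0 lower, among them *Itgb1* (1.55), *Ahnak* (1.47), *S100a6* (1.39) and *Cd44* (1.11). Of 10 naive genes 3 were 2-fold lower, among them *Lef1* (-2.08) and *S1pr1* (-1.19), and *Il7r* was 2-fold higher (1.24). The levels of *Lef1* were 268 CPM in the 50 cells, 399 in sum-0 cells and 1132 in WT cells, and those of *Maf* were 159, 269 and 52.6 CPM. The 50 cells thus lay between WT and DKO-severe sum-0 cells for *Maf* and below both for *Lef1*.

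Likeness across the whole transcriptome was measured among all 2516 DKO-severe CD4 cells without *Foxp3*, from 2000 variable genes and 30 principal components, without the genes of the rule, the markers and the receptor genes. Of the 15 nearest neighbours of each of the 50 cells, 24.0% were other cells of the group, which made up 1.99% of all cells. A further 28.3% were cells with a sum of 1 or 2 (3.18% of all cells), 43.6% were sum-0 cells (37.2%) and 2.13% were *Cntn5*-high cells (27.3%). In 47 of the 50 cells at least 1 neighbour was of the group, with a median of 3 and at most 8. Cells with a sum of 1 or 2 had neighbours of much the same kind, 18.9% from the group and 24.6% from their own. For sum-0 cells 3.07% of neighbours were of the group. These shares describe 1 animal, and neighbours are not independent of each other.

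Segment use of the T cell receptor β chain was narrow in the *Myl1*/*Kcnh5*/*Dpp10* cells. A *Trbv* segment with more UMIs than any other was found in 17 of the 50 cells (34.0%) and in 27.8% of sum-0 cells. *Trbv19* led in 11 of the 17 (64.7%, exact binomial 95% interval 38.3% to 85.8%), *Trbv12-2* and *Trbv15* in 2 each and *Trbv13-2* and *Trbv31* in 1 each. In sum-0 cells *Trbv19* led in 43 of 260 (16.5%, 12.2% to 21.6%), in cells with a sum of 1 or 2 in 8 of 31 (25.8%, 11.9% to 44.6%), in *Cntn5*-high cells in 14 of 279 (5.02%, 2.77% to 8.28%) and in WT cells in 20 of 397 (5.04%, 3.10% to 7.67%). The intervals of the 50 cells and of sum-0 cells did not overlap. *Trbv19* was compared because it was the segment that led most often in the 50 cells. The intervals make no allowance for that choice, so this is a description. The effective number of segments, which is 1 over the sum of the squares of their shares, was 2.21 in the 50 cells, 4.60 in cells with a sum of 1 or 2, 8.58 in sum-0 cells, 3.54 in *Cntn5*-high cells and 13.4 in WT cells, and it is bounded by the number of cells, which is low here.

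The evidence per cell was thin, since 3′ libraries hold few reads of the V segment. The 50 cells had 26 *Trbv* UMIs in all, 12 of them of *Trbv19*, against 58 of 382 in sum-0 cells. With a leading segment of 2 or more UMIs, only 3 of the 50 cells could be placed and *Trbv19* led in 1 of them (33.3%, 0.840% to 90.6%), against 8 of 53 sum-0 cells (15.1%, 6.75% to 27.6%), so the difference was not detectable at that depth. The *Cntn5*-high cells used other segments, with *Trbv13-2* in 41.2% and *Trbv12-2* in 32.3% of 279 cells, and WT cells used *Trbv2* most among the segments compared (14.6%), a segment seen in 0 of the 17 cells.

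**Figure D5:**
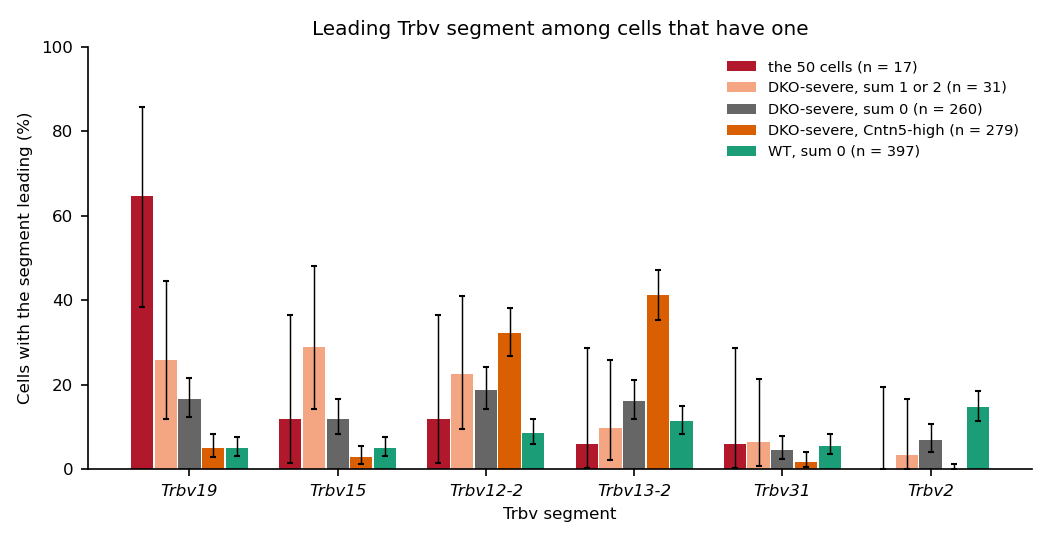
Percentage of cells in which a segment led (y axis, bars, with exact binomial 95% intervals) for 6 *Trbv* segments (x axis) in the 50 *Myl1*/*Kcnh5*/*Dpp10* cells and 4 comparison groups, among the cells with a leading segment (n in the key). *Trbv19* stands at 64.7% in the 50 cells and between 5.02% and 25.8% in the other groups, while *Trbv13-2* and *Trbv12-2* are highest in *Cntn5*-high cells.

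Read the other way, 11 of the 62 gated DKO-severe cells led by *Trbv19* were *Myl1*/*Kcnh5*/*Dpp10* cells (17.7%, interval 9.20% to 29.5%), and 19 (30.6%) had at least 1 UMI of the 3 genes. For *Trbv15* the counts were 2 of 42 (4.76%) and 11 of 42 (26.2%), for *Trbv12-2* 2 of 58 and 9 of 58, for *Trbv13-2* 1 of 46 and 4 of 46, and for all other segments 1 of 100 and 5 of 100. *Mal* was at 23.2 CPM in the 43 sum-0 cells led by *Trbv19* and 3.54 CPM in the 217 led by another segment, whereas *Ctnnd2* was at 23.2 and 15.2 CPM. These levels rest on few UMIs and have no intervals. Over all 936 sum-0 cells *Mal* had 73 UMIs in 35 cells, with up to 7 in a cell. *Ctnnd2* had 85 UMIs in 27 cells, with up to 12 in a cell. Among the 50 cells, *Mal* was at 256 CPM in the 11 led by *Trbv19* and 332 in the 6 led by another segment. It was at 220.4 CPM in the 33 with no leading segment. *Ctnnd2* was at 177, 210.0 and 171 CPM in the same order. Both were thus seen in cells led by *Trbv19* and in cells led by another segment. Of the 11 cells led by *Trbv19*, 8 had *Myl1*, 7 *Kcnh5*, 1 *Dpp10*, 9 *Mal* and 4 *Ctnnd2*.

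Variable segments of the α chain were seen in few of these cells, whereas its constant gene *Trac* had a UMI in 43 of the 50. A leading *Trav* segment was found in 2 of the 50 cells (4%), both *Trav12-2*, against 15.5% of sum-0 cells, 20.9% of *Cntn5*-high cells and 5% of cells with a sum of 1 or 2. A leading *Trbj* segment was found in 4 cells, a different segment in each. The constant gene *Trbc1* had a UMI in 80.0% of the 50 cells and 65.2% of sum-0 cells but stood at 842 and 1007 CPM, and in *Cntn5*-high cells it was at 337 CPM.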

How the data were processed

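The authors prepared 3′ single-cell libraries from hashtag-labelled TCRβ+ cells of 1 WT and 1 DKO-severe mouse (10000 cells loaded) and processed reads with Cell Ranger 7.1.0 on mm10. Deposited are raw UMI counts of 32285 genes and 2 hashtags, 1 matrix per genotype. The cells described, the markers and the gene lists were chosen with earlier results of these data known. Cells with fewer than 500 genes or more than 10% mitochondrial UMIs were removed. Doublets were scored with Scrublet (scanpy 1.11.5) but kept. For each group of cells the counts were added up and scaled to CPM. Log2 ratios count fewer than 3 UMIs as 3, and their intervals are exact conditional 95% intervals. Genes with 100 or more UMIs in both groups together and a mean of 20 or more CPM were compared and called at 2-fold. With 1 mouse per genotype no p-value was computed. Shares have exact binomial 95% intervals, and intervals and the limit of 3 counts for a count of 0 cover counting error only. A leading segment is the single V or J segment with most UMIs in a cell.

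Named genes are those of the gene lists, the 12 highest and 12 lowest ratios over sum-0 cells, the 6 highest and 6 lowest over *Cntn5*-high cells (without genes of the rule and immunoglobulin, haemoglobin, mitochondrial, ribosomal protein, T cell receptor and sex-linked genes), the leading segments and 2 genes on each side of each marker. *Pcsk1*, *Pdzrn3* and *Nebl* were taken from the highest ratios over WT cells, ranked in the same way. Gene positions are GENCODE and promoter sequences RefSeq, both on the build of the files. In simulated counts for the comparison with sum-0 cells, 199 of 200 changed genes were called among 6297, 113 unchanged genes passed 2-fold, and 96.5% of intervals held the true ratio. These counts were drawn without variation between cells, as the intervals assume. The simulation therefore checks the calculation and not how well the intervals cover the spread between real cells. Alternatives were other thresholds, depths, scalings and floors, and leaving out the cells led by *Trbv19*. Added after the data were seen were cells without transcripts of other cell types and calls whose interval leaves out 0. Some genes of the lists are counted but not reported here by name.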

Additional observations from a re-analysis of the deposited data

How the results depend on the processing

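No paired analysis was possible because each genotype was 1 mouse and no test was run. Of 74 alternative values of the main results, 62 stayed within 1.5 times the reported value (counts of genes and the effective number of segments) or within its interval (shares, and list medians with the median ends of their genes' intervals), and 12 did not. With a threshold of 5 UMIs (25 cells) the share of gated DKO-severe cells was 2.35%, 254 genes were 2-fold higher (104 of the 143 among them) and 604 lower (289 of the 373). With the rule applied to counts thinned to 4000 UMIs the share was 1.89%, and with cells thinned before summing 94 genes were higher (50 of the 143). With 50 or more UMIs and no CPM floor 9325 genes were compared, 282 were higher and 793 lower. Leaving immunoglobulin, haemoglobin, mitochondrial and ribosomal protein genes out of the CPM gave a Tfh list median of -1.19, with 9 in place of 7 genes past the floor. A leading segment of 2 or more UMIs gave a *Trbv19* share of 33.3% on 3 cells. Without the 11 cells led by *Trbv19*, 190 genes were higher (118 of the 143) and 437 lower (310 of the 373). The 33 cells with no leading segment stayed in, and the segment they used is not known.

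Leaving out cells with 10 or more UMIs of granulocyte, monocyte, B cell and dendritic cell genes, an alternative chosen after the data were seen, gave 123 higher (102 of the 143) and 316 lower genes (269 of the 373). It turned the log2 ratios of *S100a9* (0.073), *Camp* (0.12), *Lyz2* (0.65), *Ngp* (0.68), *S100a8* (0.66), *Retnlg* (2.34) and *Lcn2* (1.60). All of these but *Lcn2* count towards the limit themselves. At 3 or more UMIs, which removed 34 of the 50 cells, *S100a9* (0.36), *Camp* (2.32), *Lyz2* (3.68), *Ngp* (2.58), *S100a8* (0.60), *Slpi* (0.55), *Lcn2* (2.40) and *Cd74* (0.44) turned, and the medians were -0.62 for the naive, -0.64 for the Treg and -0.63 for the memory list. In the 50 cells these ratios rest on few UMIs, and fewer than 3 are counted as 3. *Camp*, *Lyz2* and, at the lower limit, *S100a9* and *Ngp* had 0 UMIs, as had *Retnlg*, and the intervals of *S100a8*, *Slpi*, *Lcn2* and *Cd74* reached below 0, so none of the turned ratios shows a higher level. The ratios of *Mal* (4.20 to 5.36), *Ctnnd2* (3.45 to 4.05), *App* (2.74 to 3.49) and *Ccl5* (-4.96 to -4.34) stayed past 2-fold in all 9 alternatives run for them. Depth limits the V segment results, with a leading segment in 17 of 50 cells.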

Other observations

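For several cell cycle genes, most UMIs in the *Myl1*/*Kcnh5*/*Dpp10* cells came from 1 cell per gene. Whether it was the same cell for each gene was not checked. *Mki67*, a marker of dividing cells, had 16 UMIs in 4 of the 50 cells, and 81.3% of them came from 1 cell. The highest cell for each gene held 86.1% of the 72 *Stmn1* UMIs, 85.7% of the 21 *Top2a* UMIs and 100% of the 25 *Birc5* UMIs. *Pcna* was seen in 23 cells. Of 8 cell cycle genes compared with sum-0 cells, 0 were 2-fold higher and 0 lower, against 2.33% and 6.08% of all genes tested. Of 5 compared with WT cells 3 were 2-fold higher, against 4.86% of all genes tested. Where 1 cell holds most UMIs of a gene, its ratio does not describe the group. Summed over the list, levels were 491 CPM in the 50 cells, 581 in sum-0 cells and 235 in WT cells.

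Some genes outside the named lists were picked after their values were seen, from the highest ratios over WT cells. Their distance above WT cells therefore follows from the choice. *Pcsk1*, a prohormone convertase, was at 220.5 CPM in the 50 cells and 1.45 in WT cells with a sum of 0. *Pdzrn3* was at 320.0 against 4.13 CPM and *Nebl*, an actin-binding protein known from heart muscle, at 455 against 34.1 CPM. In DKO-severe sum-0 cells they were at 108, 117 and 153 CPM in the same order, above the WT level too. In *Cntn5*-high cells they were at 289, 380 and 165 CPM, so *Pcsk1* and *Pdzrn3* were higher there than in the 50 cells and *Nebl* was lower.

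Joining segments of the α chain were seen in 9 of the 50 cells. *Traj2* led in 3 of these 9 cells (33.3%, exact binomial 95% interval 7.49% to 70.1%), in 3 of 10 cells with a sum of 1 or 2, in 4 of 227 sum-0 cells (1.76%, 0.482% to 4.45%) and in 2 of 354 WT cells. *Traj2* was picked after its values were seen.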
